A study of Mus musculus with 6 samples.

Results

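Axon guidance ligands and receptors were followed in mLPS1 cells, a mouse cell line labelled as dedifferentiated liposarcoma, which is a malignant tumour related to fat tissue. The members are the genes whose symbol belongs to the semaphorin, plexin, Eph, ephrin, Slit, Robo, netrin or Unc5 families. This rule uses names and no measured value, but it was set with earlier results of these data known. The members number 51 of the 14472 genes in the authors' deposited table, and no symbol stood on more than 1 row. The mouse annotation holds 66 such symbols, and the other 15 are not analysed here. The study has 3 libraries labelled NICD knockout, with the numbers p34, p36 and p39 in their titles, and 3 labelled wild type, with p35, p37 and p40. NICD is the intracellular domain of a Notch receptor, the fragment that is freed on activation and acts in the nucleus. Both groups are mLPS1 cells, no agent is named for either, and the labels give 1 cell line per genotype without saying whether the altered line is a single clone. Over-expression of Notch is named in the title of the series, and no label says whether wild type cells received a Notch construct.

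The 8 families are best known from the developing nervous system, where they steer growing axons by attraction or repulsion, and most of them also shape blood vessels and connective tissue. Semaphorins act on plexin receptors, class 3 semaphorins with neuropilins as coreceptors. Ephrins are held on the cell surface and bind Eph receptor tyrosine kinases on the next cell, with signals running into both cells. Secreted Slit proteins repel cells through Robo receptors, and netrins act through Unc5 receptors or through Dcc and Neo1.

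For each gene, the authors' deposited table gives a mean normalised count over libraries and a log2 fold change of the NICD knockout over wild type with its standard error (SE) and adjusted p. A level for each group, in normalised counts per library, was fitted here from that mean and fold change, and it carries no error of its own. No value of a single library was used here, so depth per library is unknown. The labels do not tie the libraries to separate cultures, and the p-values then measure only the spread between these samples, which may be technical. A gene is said to have risen or fallen where its adjusted p in the authors' deposited table was under 0.05. As these are bulk samples, fewer cells that use a gene and less RNA per cell cannot be told apart.

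Members moved in both directions. Where the mean was at least 100, the steepest falls were those of the membrane-bound semaphorins Sema6d, Sema6a and Sema7a. Ephb1 also fell steeply, but it was fitted at under 1 count per library in the NICD knockout. The largest fitted rises were those of Robo2, Epha7 and Unc5c, each fitted at under 1 count per library in wild type. The size of these 3 rises therefore rests on a very low wild type level. In the NICD knockout 15 members (29.4%) rose by the authors' deposited table, beside 25.4% of all 14470 genes with a p. A further 22 (43.1%) fell in the authors' deposited table, beside 25.1% of all genes. Changes of at least 2-fold were reached by 13 risen members (25.5%) and 16 fallen members (31.4%) in the authors' deposited table, beside 13.4% and 9.74% of all genes. The remaining 14 members did not pass. Among the 29 members with a mean of at least 100, 7 rose (24.1%) and 17 fell (58.6%) in the authors' deposited table, beside 24.4% and 30.2% of the 10479 genes at that level. The median log2 fold change was -0.08 over the 51 members and 0.02 over all genes in the authors' deposited table, and -0.66 and -0.05 where the mean was at least 100. The share that rose was near that of all genes, while the share that rose at least 2-fold and the shares that fell were above it. The 30 ligands gave 8 rises and 12 falls, and the 21 receptors gave 7 rises and 10 falls in the authors' deposited table.

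**Figure D1:**
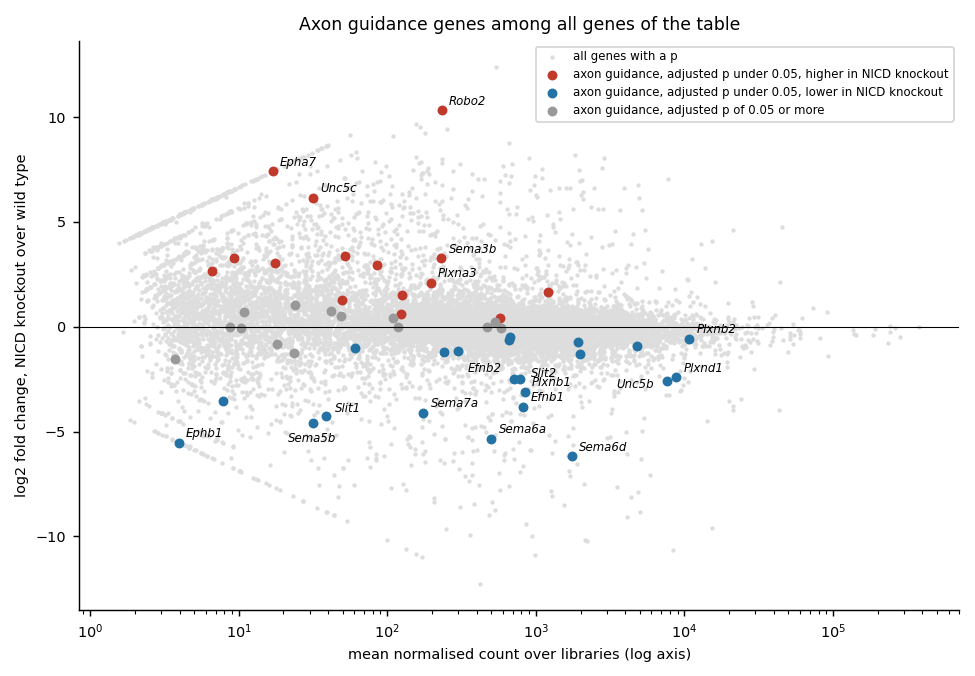
Each gene's log2 fold change, NICD knockout over wild type, against the mean normalised count (log axis) for all genes with a p (grey) and the 51 axon guidance genes (red risen, blue fallen, dark grey not past the threshold). Sema6d lies lowest of the 51 at -6.18 and Robo2 highest at a fitted 10.31, and the straight lines of grey points at low means are genes with almost no counts in 1 group.

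The promoters of 4 members that moved steeply are shown because each holds the core letters recognised by Rbpj, the DNA-binding partner of the Notch intracellular domain. The sequences are RefSeq promoters of build GRCm38.p6, 250 bases before to 50 after the start, on the strand of the gene, in lower case with 2 motifs in capitals: the Rbpj core TGGGAA, searched on both strands so that its reverse reads TTCCCA, and the E-box CACGTG, a sequence that Hey repressors can bind. The 2 motifs share no bases in these windows. The 4 members shown were the 3 steepest falls and the steepest rise among the members ranked. Those ranked had a mean of at least 100, a change of at least 2-fold and an Rbpj core in a RefSeq promoter. Sema6a, which fell more steeply than Efnb1 and Plxnb1, was left out before the ranking, as were all promoters on its chromosome, 18.
Sema6d, chr2:124089719-124090018, plus strand: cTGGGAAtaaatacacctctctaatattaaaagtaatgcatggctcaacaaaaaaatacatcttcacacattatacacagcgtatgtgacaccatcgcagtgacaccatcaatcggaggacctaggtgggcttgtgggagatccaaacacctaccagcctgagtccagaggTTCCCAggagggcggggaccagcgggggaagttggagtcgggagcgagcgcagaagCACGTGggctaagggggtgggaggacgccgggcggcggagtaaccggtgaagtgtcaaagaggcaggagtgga
Efnb1, chrX:99135811-99136110, plus strand: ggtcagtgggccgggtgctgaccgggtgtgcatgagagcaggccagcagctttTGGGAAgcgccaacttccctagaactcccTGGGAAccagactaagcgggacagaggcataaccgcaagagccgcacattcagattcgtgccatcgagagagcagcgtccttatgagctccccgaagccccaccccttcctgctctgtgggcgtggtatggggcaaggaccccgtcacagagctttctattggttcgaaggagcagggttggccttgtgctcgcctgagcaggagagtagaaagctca
Plxnb1, chr9:109095186-109095485, plus strand: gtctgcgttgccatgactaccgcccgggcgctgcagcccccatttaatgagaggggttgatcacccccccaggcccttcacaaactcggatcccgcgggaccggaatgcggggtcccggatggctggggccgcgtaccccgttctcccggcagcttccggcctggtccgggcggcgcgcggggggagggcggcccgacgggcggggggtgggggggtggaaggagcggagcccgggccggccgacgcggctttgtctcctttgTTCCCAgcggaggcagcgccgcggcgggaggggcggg
Robo2, chr16:75447244-75447543, minus strand: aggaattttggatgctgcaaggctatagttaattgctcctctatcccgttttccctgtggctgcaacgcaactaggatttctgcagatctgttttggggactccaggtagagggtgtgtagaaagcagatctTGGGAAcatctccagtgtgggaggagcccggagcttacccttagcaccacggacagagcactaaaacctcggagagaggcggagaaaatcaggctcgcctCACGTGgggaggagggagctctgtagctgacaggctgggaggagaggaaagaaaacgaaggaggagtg
The Sema6d window, the first of 2 listed for the gene, holds the Rbpj core at bases 2 to 7 and, reversed, at bases 172 to 177, with an E-box at bases 228 to 233, counted from 1 at the 5′ end. In the Efnb1 window the core stands at bases 54 to 59 and 83 to 88, and in the Plxnb1 window, reversed, at bases 264 to 269. The Robo2 window, the first of 3 listed, has the core at bases 133 to 138 and an E-box at bases 233 to 238. RefSeq promoters were found for 43 members. The core was present in 7 of 18 fallen members (38.9%), 4 of 12 risen members (33.3%) and 3 of 13 members that did not pass (23.1%), beside 28.3% of all 27025 genes with a promoter. An E-box was present in 4 of the 43 members (9.30%) and in 8.09% of all genes with a promoter, and these were 3 of the 12 risen members, 1 of the 18 fallen members and 0 of the 13 that did not pass. A gene counted here if any of its promoters matched. Counted by promoter, the core was in 15 of 59 member promoters (25.4%), beside 25.6% of all promoters. The E-box was in 4 of these 59 (6.78%), beside 7.15% of all promoters. A match describes these letters only and does not show that a factor binds there.

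Calls among the semaphorins differed between membrane-bound and secreted members, though neither group moved as a whole. Within class 4, Sema4c fell, Sema4b rose and Sema4a, Sema4d and Sema4g did not pass. Of 12 membrane-bound semaphorins of classes 4 to 7, 7 were called lower and 1 higher by the authors' deposited table, while of 5 secreted class 3 semaphorins 3 rose and none fell. Among all genes there, 25.1% fell and 25.4% rose. Sema6d, a transmembrane ligand of the plexin encoded by Plxna1, had a fitted level of 47.3 in the NICD knockout, against 3439 in wild type, from the authors' deposited table. Its log2 fold change there was -6.18 (SE 0.27, adjusted p = 1.48e-113), and the median of the genes around it on chromosome 2 was -0.30. Sema6a, which acts on the plexins encoded by Plxna2 and Plxna4, was fitted at 24.3 in the NICD knockout and 979 in wild type from the authors' deposited table. It fell 40.3-fold there (adjusted p = 2.46e-106, log2 fold change -5.33 with an SE of 0.24), while its neighbours had a median of 0.60. Both genes were thus at low levels in the knockout. Sema7a, a lipid-anchored semaphorin that binds the plexin encoded by Plxnc1 and beta 1 integrin, was fitted at 19.3 in the NICD knockout and 330.0 in wild type (authors' deposited table, adjusted p = 4.42e-25, log2 fold change -4.10 with an SE of 0.39). Sema5b, one of a pair of semaphorins with thrombospondin repeats, was fitted at 2.57 in the NICD knockout and 61.1 in wild type and fell 23.7-fold in the authors' deposited table. Its relative Sema5a, the semaphorin with the highest mean, fell 1.66-fold in the authors' deposited table (adjusted p = 2.86e-09, log2 fold change -0.73 with an SE of 0.12), to 1453 in the NICD knockout against 2410 in wild type. Sema4c, a ligand of the plexin encoded by Plxnb2, fell to 147 in the NICD knockout, against 338 in wild type, in the authors' deposited table (adjusted p = 6.64e-06, log2 fold change -1.20 with an SE of 0.25). By the authors' deposited table Sema6b fell 1.58-fold, and the median of the genes around it on chromosome 17 was -0.55 on the log2 scale. Sema4b rose 1.31-fold in the authors' deposited table, close to the threshold (adjusted p = 0.0458). Sema4a, Sema4d, Sema4g and Sema6c, all with a mean under 50, missed the threshold in the authors' deposited table, where their log2 fold changes were 0.72, -0.08, -0.82 and 0.49.

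Sema3b and Sema3f, secreted semaphorins that are neighbours on chromosome 9 and are studied as growth inhibitors in human lung cancer, both rose. Sema3b was fitted at 419 in the NICD knockout and 43.9 in wild type from the authors' deposited table (adjusted p = 6.69e-25, log2 fold change 3.25 with an SE of 0.31). Sema3f was fitted at 95.5 in the NICD knockout and 9.09 in wild type and rose 10.5-fold in the authors' deposited table (adjusted p = 5.14e-12, log2 fold change 3.39 with an SE of 0.47). The genes around them had a median of 0.14. Sema3e, which binds the receptor encoded by Plxnd1 without a neuropilin, rose 6.40-fold at a low level, 11.5 in the NICD knockout and 1.79 in wild type, in the authors' deposited table. Sema3a, the class 3 member with the highest mean and a classical repellent of axons, missed the threshold in the authors' deposited table (adjusted p = 0.908, log2 fold change -0.04 with an interval of -0.48 to 0.40), with levels of 460 in the NICD knockout and 471 in wild type. Sema3g did not pass either, at -1.26 in the authors' deposited table (adjusted p = 0.0703).

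**Figure D2:**
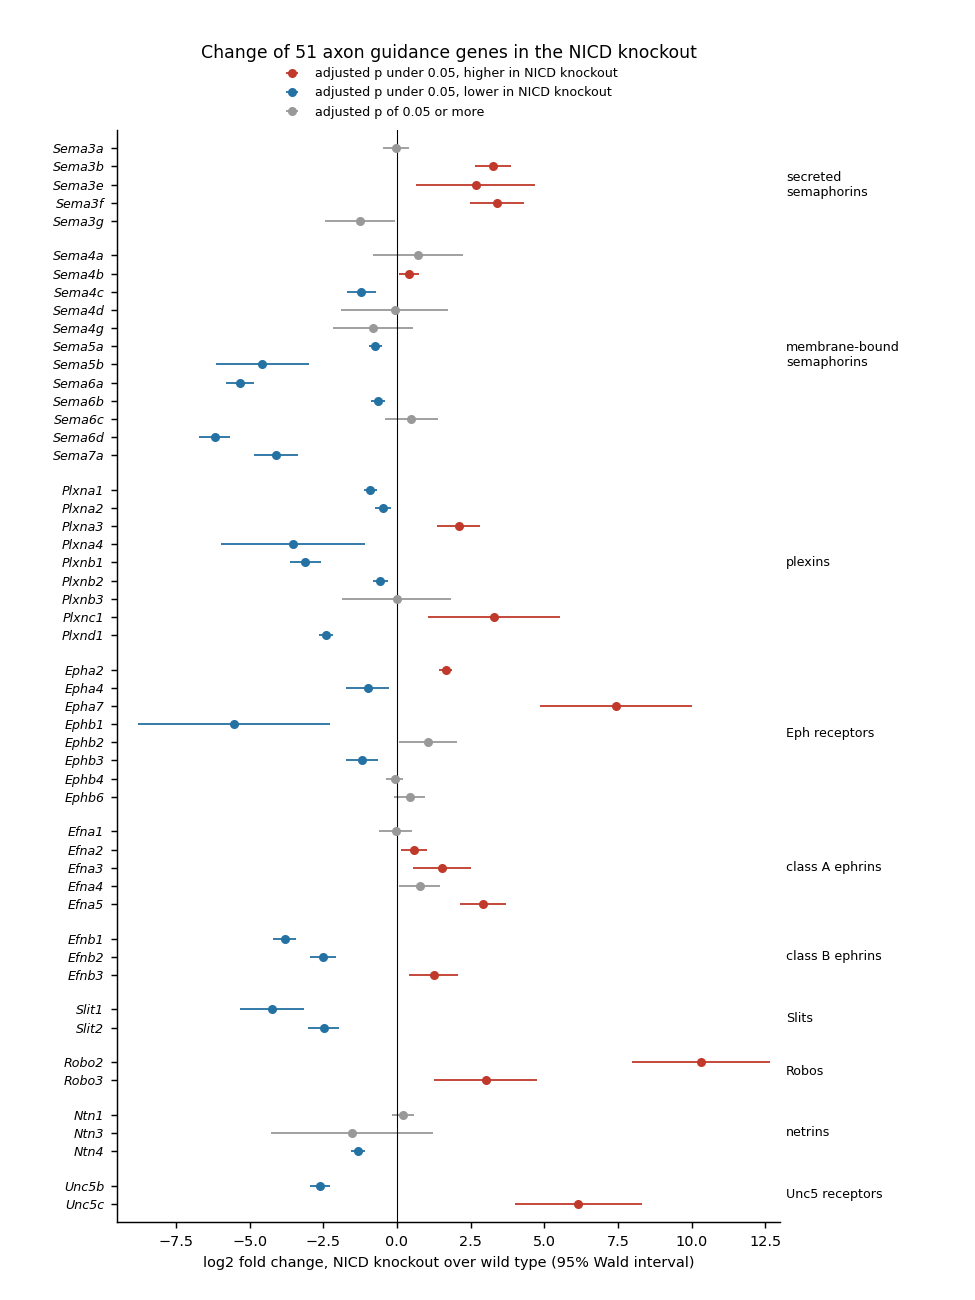
Log2 fold change of each of the 51 genes, NICD knockout over wild type, with its 95% Wald interval, ordered by family. Red points rose, blue points fell and grey points did not pass. Of 12 membrane-bound semaphorins 7 lie left of 0 in blue. To the right of it in red lie 3 of 5 secreted semaphorins and 3 of 5 class A ephrins. Of all genes with a p, 25.1% fell and 25.4% rose.

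Plexins, the semaphorin receptors, were mostly lower, with 6 of 9 fallen and 2 risen in the authors' deposited table. Of all genes 25.1% fell and 25.4% rose, so the share of plexins that rose (22.2%) was near that of all genes. Plxnd1, the receptor of Sema3e and best known in vessel patterning, was fitted at 2775 in the NICD knockout and 14806 in wild type from the authors' deposited table, a 5.33-fold fall (adjusted p = 4.50e-83, log2 fold change -2.42 with an SE of 0.12). Plxnb1, a receptor of class 4 semaphorins, was fitted at 175 in the NICD knockout and 1505 in wild type and fell 8.61-fold in the authors' deposited table (adjusted p = 2.07e-29, log2 fold change -3.11 with an SE of 0.27). Plxnb2, its relative and the member with the highest mean of all 51, fell to 8655 in the NICD knockout, against 12868 in wild type, in the authors' deposited table (adjusted p = 5.04e-05, log2 fold change -0.57 with an SE of 0.13). The intervals of the 2 related receptors did not overlap, at -3.63 to -2.58 for Plxnb1 and -0.83 to -0.32 for Plxnb2. Plxna1 and Plxna2, receptors of class 3 semaphorins together with neuropilins, fell by factors of 1.86 and 1.39 in the authors' deposited table, beside neighbour medians of -0.46 and -0.37. Plxna4 fell at a low level, 1.25 in the NICD knockout and 14.3 in wild type, in the authors' deposited table. Plxna3 went the other way and was fitted at 318 in the NICD knockout and 74.6 in wild type from the authors' deposited table (adjusted p = 1.05e-07, log2 fold change 2.09 with an SE of 0.37). Plxnc1, the receptor of Sema7a, had a mean of 9.26 in the authors' deposited table and rose 9.81-fold, to 16.8 in the NICD knockout against 1.71 in wild type. Plxnb3 did not pass, and the authors' deposited table left it a wide interval, -1.85 to 1.83 around -0.01.

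Within the ephrins, class B members with high levels in wild type fell and class A members rose or did not pass. Efnb1, a transmembrane ephrin that binds Ephb receptors, was fitted at 109 in the NICD knockout and 1532 in wild type from the authors' deposited table, and it fell (adjusted p = 1.20e-76, log2 fold change -3.81 with an SE of 0.20). Efnb2, the ephrin of arteries and a gene that Notch switches on in arterial endothelium, was fitted at 215 in the NICD knockout and 1221 in wild type (authors' deposited table, adjusted p = 1.39e-28, log2 fold change -2.51 with an SE of 0.22). The third class B ephrin, Efnb3, stood at a low level and rose 2.38-fold by the authors' deposited table, with 69.9 in the NICD knockout and 29.4 in wild type. Of 5 class A ephrins, which are attached by a lipid anchor and bind Epha receptors, 3 rose and none fell in the authors' deposited table. Among all genes 25.4% rose and 25.1% fell. Of these 3 ephrins, Efna5 alone passed a test of a change beyond 2-fold. Efna5 was fitted at 149.6 in the NICD knockout and 19.8 in wild type and rose 7.57-fold in the authors' deposited table (adjusted p = 3.92e-12, log2 fold change 2.92 with an SE of 0.40). Efna3 had the highest mean of the class and rose to 186 in the NICD knockout, against 64.4 in wild type, in the authors' deposited table (adjusted p = 0.00529, log2 fold change 1.53 with an SE of 0.49). It shares 344 exonic bases with an antisense gene in the annotation, and reads of the overlap cannot be told apart. Efna2 rose by 0.59 on the log2 scale in the authors' deposited table. Efna1 and Efna4, which lie beside Efna3 on chromosome 3, missed the threshold in the authors' deposited table, where their log2 fold changes were -0.04 and 0.77 (adjusted p = 0.926 and 0.0582).

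Among the Eph receptors 2 of 8 rose and 3 fell in the authors' deposited table, counts not far from the 25.4% and 25.1% of all genes. Epha2, a receptor of class A ephrins that is often raised in tumours, had the highest mean of the family and was fitted at 1827 in the NICD knockout and 583 in wild type from the authors' deposited table. It rose 3.14-fold there (adjusted p = 6.05e-49, log2 fold change 1.65 with an SE of 0.11). Ephb3, a receptor of class B ephrins, fell to 183 in the NICD knockout, against 415 in wild type, in the authors' deposited table (adjusted p = 7.71e-05, log2 fold change -1.18 with an SE of 0.28), and the median of the genes around it on chromosome 16 was -0.46. Ephb4, the venous receptor of Efnb2, whose exons share 33 bases with another gene, had levels of 567 in the NICD knockout and 599 in wild type from the authors' deposited table and did not pass (log2 fold change -0.08, interval -0.37 to 0.22, adjusted p = 0.689). Epha4, which binds ephrins of both classes, fell to 40.7 in the NICD knockout, against 81.3 in wild type, in the authors' deposited table (adjusted p = 0.0175). Epha7 was fitted at 33.7 in the NICD knockout and at under 1 count per library in wild type from the authors' deposited table (SE 1.32, adjusted p = 1.11e-07). With wild type set to a floor of 1 per library, 3 counts over the group, its log2 fold change was 5.08. Ephb1 was fitted below the floor in the NICD knockout and at 7.71 in wild type from the authors' deposited table (SE 1.66, adjusted p = 0.00249), and with the knockout at the floor its log2 fold change was -2.95. Ephb2 and Ephb6 missed the threshold in the authors' deposited table, where their log2 fold changes were 1.05 and 0.43 (adjusted p = 0.0725 and 0.166). The neighbours of Ephb6 on chromosome 6 had a median of -0.77.

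Slits and Robos moved in opposite directions, with only 2 measured genes in each family. Of all genes 25.1% fell and 25.4% rose. Slit2, the secreted repellent with the higher mean, was fitted at 237 in the NICD knockout and 1325 in wild type from the authors' deposited table (adjusted p = 1.83e-19, log2 fold change -2.48 with an SE of 0.27). Slit1 fell 19.1-fold in the authors' deposited table, to 3.85 in the NICD knockout against 73.5 in wild type (adjusted p = 1.80e-13, log2 fold change -4.25 with an SE of 0.55). Both measured Slit genes therefore fell. Robo2, their receptor, was fitted at 464 in the NICD knockout and at under 1 count per library in wild type, from the authors' deposited table (SE 1.19, adjusted p = 8.76e-17). With wild type at the floor, its log2 fold change was 8.86, while the median of the genes around it on chromosome 16 was -0.37. Robo3, a divergent relative that in mammals does not act as a Slit receptor, rose 8.08-fold in the authors' deposited table, to 31.4 in the NICD knockout against 3.89 in wild type (adjusted p = 0.00209, log2 fold change 3.01 with an SE of 0.89).

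**Figure D3:**
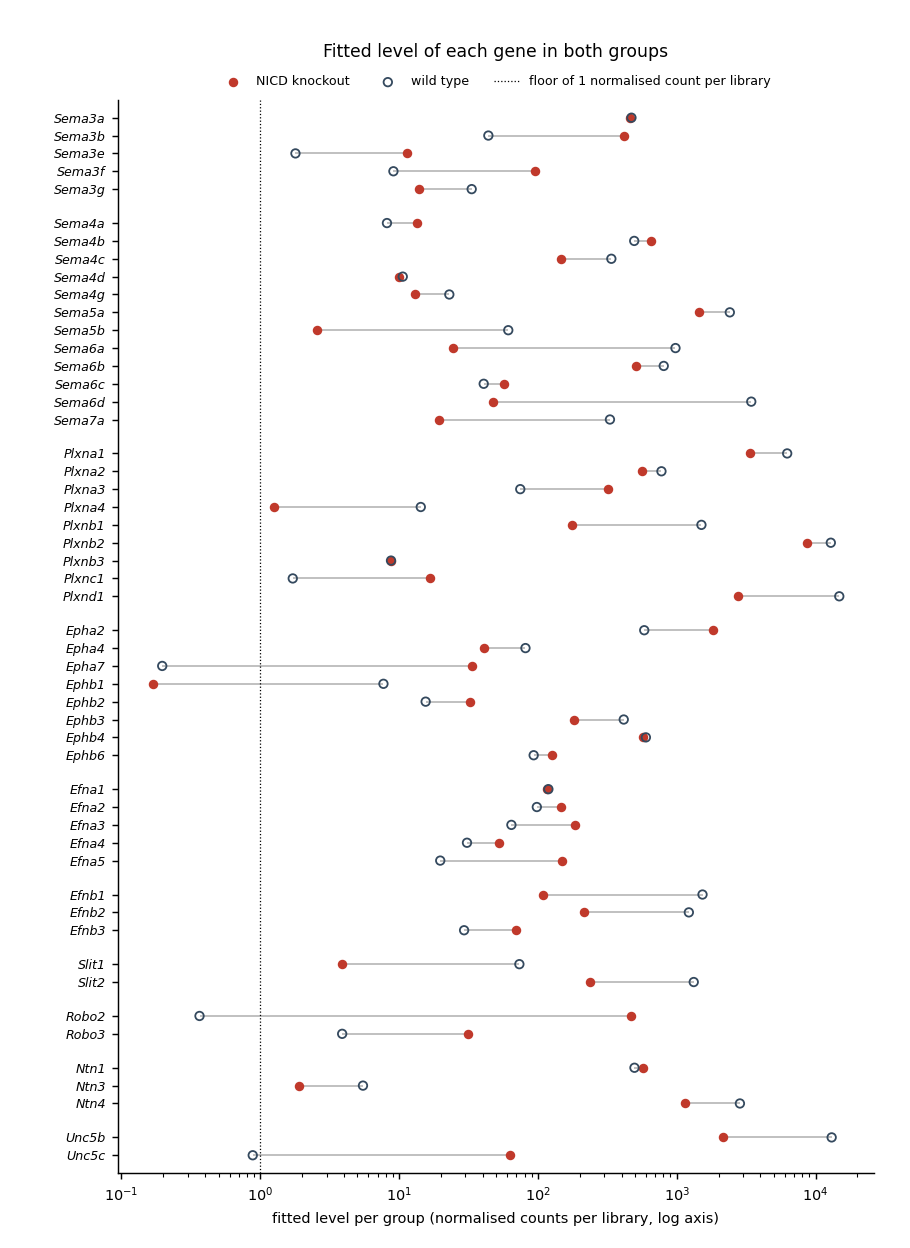
Fitted level of each gene in the NICD knockout (filled red) and in wild type (open), in normalised counts per library on a log axis, with the floor of 1 as a dotted line. Robo2, Epha7 and Unc5c lie below the floor in wild type and Ephb1 lies below it in the NICD knockout.

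Netrins and their Unc5 receptors were led by Ntn4 and Unc5b, and both fell. Ntn4, a netrin that binds laminin in basement membranes, was fitted at 1144 in the NICD knockout and 2849 in wild type from the authors' deposited table (adjusted p = 4.74e-26, log2 fold change -1.32 with an SE of 0.12). Ntn1, the classical attractant and repellent of axons, had levels of 572 in the NICD knockout and 496 in wild type and missed the threshold by the authors' deposited table (log2 fold change 0.21, interval -0.16 to 0.57, adjusted p = 0.370). Ntn3, with a mean of 3.70 and exons that overlap other genes, did not pass. Unc5b, a netrin receptor of vessels that can trigger cell death when its ligand is missing, was fitted at 2155 in the NICD knockout and 13049.8 in wild type from the authors' deposited table, a 6.06-fold fall (adjusted p = 2.64e-49, log2 fold change -2.60 with an SE of 0.17). Unc5c was fitted at 62.8 in the NICD knockout and at under 1 count per library in wild type from the authors' deposited table (SE 1.10, adjusted p = 1.26e-07). With wild type at the floor its log2 fold change was 5.97, and the median of the genes around it on chromosome 3 was 0.31.

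To set members of a family side by side, the fitted level was divided by the length of the longest coding transcript, giving normalised counts per kilobase. Levels per kilobase are descriptions without an error. Sema6d held 0.982% of the summed semaphorin level per kilobase in the NICD knockout and 34.2% in wild type. In the NICD knockout the highest semaphorins per kilobase were Sema4b at 164, Sema6b at 137, Sema5a at 134.5 and Sema3b at 123, and in wild type they were Sema6d at 534, Sema5a at 223 and Sema6b at 216. Among plexins, Plxnb2 stood at 1332 per kilobase in the NICD knockout and 1981 in wild type, and Plxnd1 held 18.1% of the plexin level per kilobase in the NICD knockout and 42.3% in wild type. Efnb1 and Efnb2 held 8.61% and 11.5% of the ephrin level per kilobase in the NICD knockout, against 52.0% and 28.2% in wild type. Epha2 held 68.3% of the Eph receptor level in the NICD knockout and 35.9% in wild type, where Ephb4 followed with 33.3%. Summed over members, levels per kilobase were lower in the NICD knockout for semaphorins (747 against 1563 in wild type), plexins (2225 against 5073) and ephrins (389 against 905), and higher for Eph receptors (684 against 415). The Eph receptor sum was carried by Epha2, at 467 per kilobase in the NICD knockout and 149 in wild type. The difference for Epha2 exceeded that of the sum, so the other Eph receptors together were lower in the NICD knockout.

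**Figure D4:**
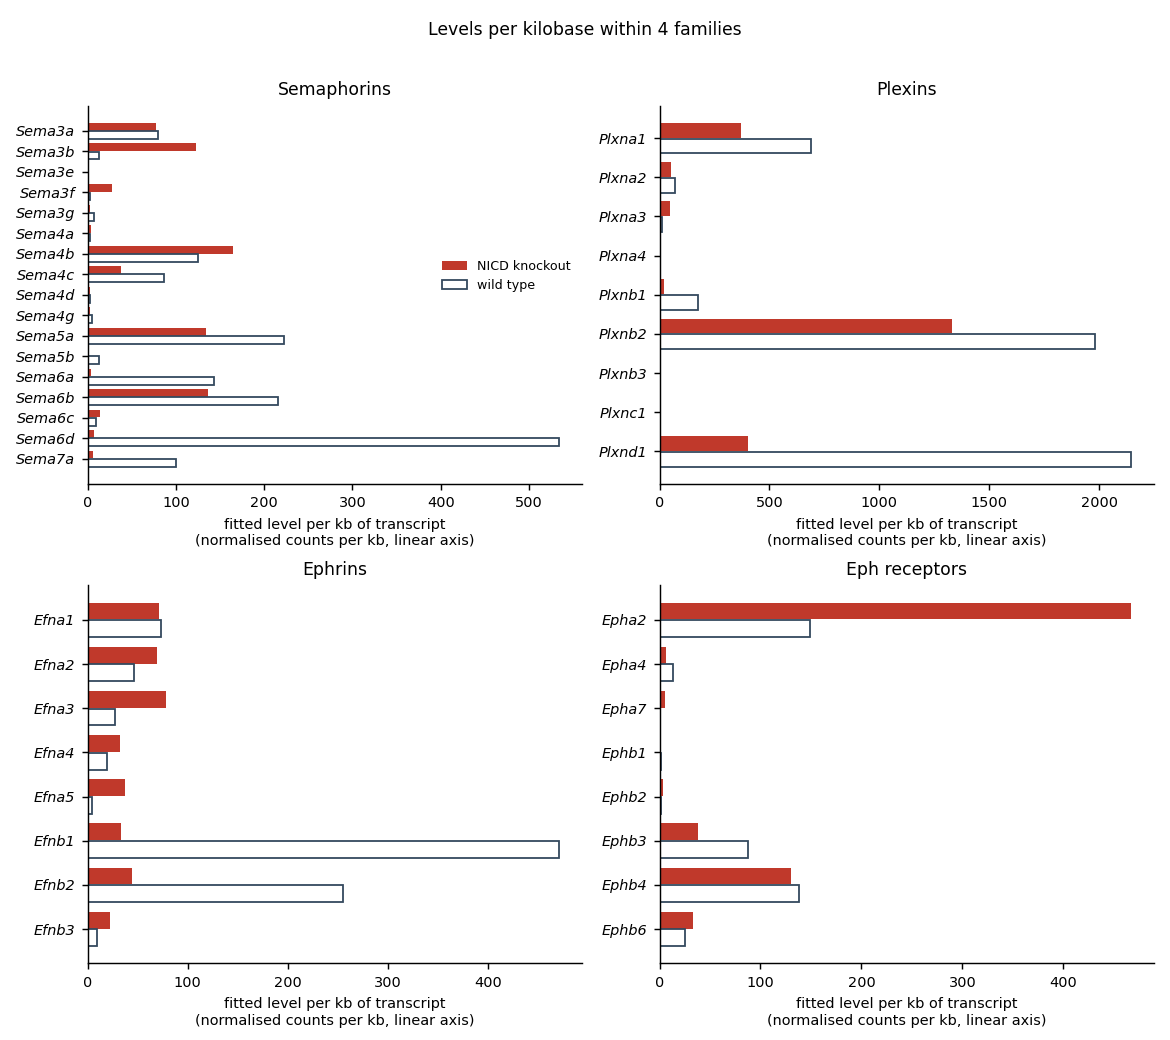
Fitted level per kilobase of the longest coding transcript for semaphorins, plexins, ephrins and Eph receptors in the NICD knockout (red, upper bar) and wild type (open, lower bar), on linear axes that start at 0. Sema6d, Plxnd1, Efnb1 and Efnb2 have long open bars, and Epha2 has the longest red bar of its family.

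Known ligand and receptor partners did not all move alike. In the authors' deposited table Sema6d and its receptor gene Plxna1 both fell, with log2 fold changes of -6.18 and -0.90, and Sema6a and Plxna2 both fell, at -5.33 and -0.47. Efnb1 and Ephb3 both fell, at -3.81 and -1.18 in the authors' deposited table. Sema7a and Plxnc1 moved apart, at -4.10 and 3.29 in the authors' deposited table, as did Sema3e and Plxnd1, at 2.68 and -2.42. Slit2 and Robo2 also moved apart in the authors' deposited table. Efna5 and Epha7 both rose there. For Efnb2 and Ephb4, and for Ntn1 and Unc5b, the authors' deposited table called 1 partner lower and the other not. The pairs were named after their values were seen.

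The neuropilin coreceptors moved in opposite directions. Nrp1 was fitted at 240 in the NICD knockout and 1664 in wild type and Nrp2 at 6096 in the NICD knockout and 2389 in wild type, with log2 fold changes of -2.79 (SE 0.18) and 1.35 (SE 0.14) in the authors' deposited table. A list of 25 tested coreceptors and other guidance ligands also held the proteases Adam10 and Mmp14. Of this list the authors' deposited table called 14 lower, both proteases among them, and 4 higher, beside 25.1% and 25.4% of all genes. The median log2 fold change of the list was -0.65, beside 0.02 over all genes. L1cam, a neural adhesion molecule and semaphorin coreceptor, fell at -2.68, and Flrt2 and Flrt3, ligands of Unc5 receptors, fell at -5.40 and -5.28 in the authors' deposited table. The integrin gene Itga1 fell at -5.27, and Sdc1, Ntng2, Kdr, Lrrc4c and Met fell at -2.82, -1.99, -1.91, -1.40 and -1.08 in the authors' deposited table. The netrin receptor gene Neo1 rose at 0.84 and the adhesion gene Nrcam at 4.94 in the authors' deposited table. Of 52 tested intracellular effectors, the authors' deposited table called 27 lower and 12 higher, and the median was -0.54. Of these 52 genes 49 have a mean of at least 100, where 30.2% of all genes fell and 24.4% rose, so the share of effectors that rose was near that of all genes. Chn1, a Rac GTPase-activating protein that acts below Epha4, fell at -3.05, and Mical1, an actin-oxidising enzyme of plexin signalling, fell at -2.39 in the authors' deposited table. The cofilin kinase gene Limk1 fell at -1.78, and Mical3, Rnd3, Kalrn, Nck2, Evl, Rock2, Ptk2, Gsk3b and Dock1 were all called lower by the authors' deposited table, at -1.71 to -1.04. The medians around Evl and Rock2, -1.07 and -0.89, were near their own values of -1.35 and -1.33 in the authors' deposited table. Srgap3, a Slit-Robo GTPase-activating protein, rose at 2.18, and the kinase genes Pak1 and Pak3 rose at 1.45 and 7.56 in the authors' deposited table. The exchange factor genes Arhgef28, Ngef and Vav3 rose at 2.27, 3.42 and 1.11 in the authors' deposited table.

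Each member was also set beside the median log2 fold change of up to 10 expressed protein-coding genes on each side of it. These medians ran from -0.77 to 0.60, and for 11 members they lay at least 0.3 from 0. For 7 of the 37 members that rose or fell, neighbours shifted by at least that much in the same direction. With the neighbours subtracted and the Wald test repeated over all genes, Plxna2, Plxna4 and Sema6b no longer passed, with log2 fold changes of -0.10, -2.79 and -0.11. Ephb2 and Ephb6 passed in that setting, at 1.27 and 1.20. Changes of Sema6a, Sema5a and Robo2 ran against the shift of their neighbours. Apart from Efna3, the called members whose exons overlap another gene were Sema4c (334 shared bases), Plxna1 (970), Plxna4 (110), Plxnb1 (257), Plxnc1 (115), Ephb1 (152) and Unc5c (118), and their values are uncertain to that extent.

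**Figure D5:**
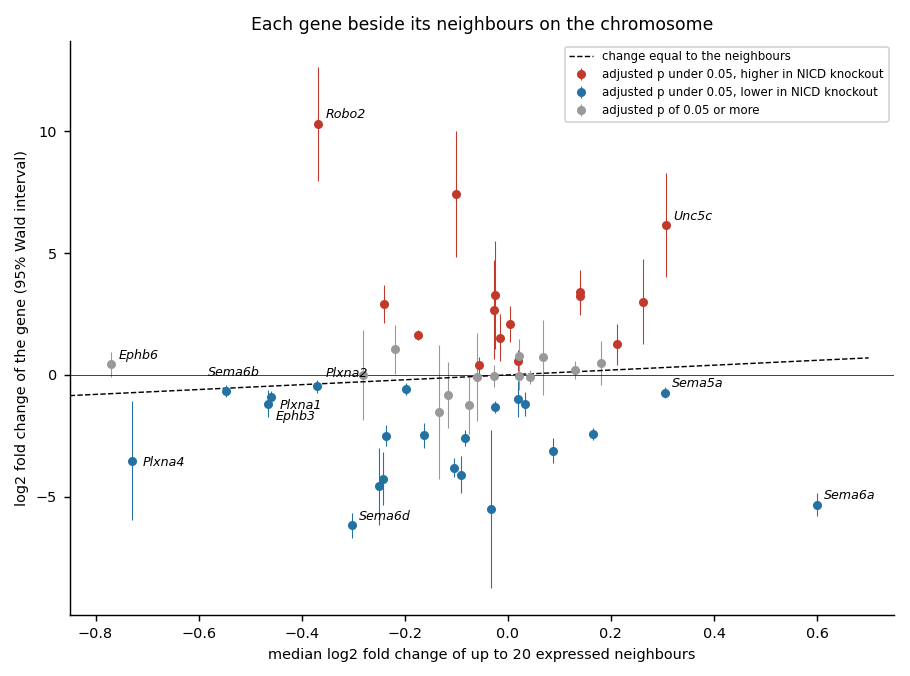
Log2 fold change of each gene with its 95% Wald interval against the median of up to 20 expressed neighbours on the chromosome, coloured by call, with names where that median is at least 0.3 from 0. The intervals of Sema6b and Plxna2 reach the dashed line of equal change, and Sema6a and Robo2 lie far from it.

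The 7 Notch pathway genes used as a check of the labels, Heyl, Hey1, Hey2, Hes1, Nrarp, Notch1 and Notch3, all fell in the authors' deposited table, with log2 fold changes between -10.65 and -1.78. Of 7 markers of mesenchymal cells, 6 were tested: Vim, Fn1, Col1a1 and Pdgfrb were high in both groups and lower in the NICD knockout, and Pdgfra and Col1a2 were low and rose. Endothelial markers were at low levels in both groups, with 4 of 6 tested, none past the threshold and a summed level of 45.8 in the NICD knockout and 40.3 in wild type. Of 6 blood cell markers 3 were tested, and Cd68 rose to 2238 in the NICD knockout, against 179 in wild type. Ptprc, at 13.7 in the NICD knockout and 3.74 in wild type, did not pass. Csf1r did not pass either, at 22.5 in the NICD knockout and 20.8 in wild type. Of 5 neuronal markers 3 were tested: Tubb3 was fitted at 52.7 in the NICD knockout and 954 in wild type and fell, Map2 also fell, and Syt1 rose. Of 4 glial markers 2 were tested, with a summed level of 27.1 in the NICD knockout and 15.2 in wild type, and of 5 epithelial markers Krt8 was tested and rose to 54.4 in the NICD knockout, against 5.38 in wild type. The 4 markers of mature adipocytes are not analysed here. The part of these markers in the changes of the guidance genes was not tested. All these values are from the authors' deposited table.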

How the data were processed

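RNA of 6 mLPS1 libraries was extracted with TRI Reagent per the labels' protocols, and groups were taken from the genotype label. The members and gene lists were chosen with earlier results of these data known. Salmon, DESeq2 and the build mm39 are named, per the submitters' processing notes, without versions, settings or filters. Per the file headers, the authors deposited for each gene a mean normalised count over libraries, a signal that is never negative. The log2 fold change and its standard error on the log2 scale are also deposited, per the file headers. The authors also deposited a score, the Wald statistic, and a p-value with its Benjamini-Hochberg adjusted form. When these 3 were recomputed here, no value differed by more than 1.56e-13. The direction, NICD knockout over wild type, comes from the name of the deposited table, which holds 1 comparison with no values of single libraries. Calls are therefore the authors' own, from DESeq2, where the p adjusted over 14470 genes was under 0.05, and the edgeR test and the omission of single libraries planned for counts were not run.

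Intervals are the log2 fold change plus or minus 1.96 SE. Levels per group assume 3 libraries each, and a group fitted below 1 normalised count per library was also set to that floor (3 counts over the group). Gene order, exon overlap and transcript length came from GENCODE M21 on GRCm38, matched by identifier for 14456 rows (99.9%). This is not the authors' build, and neither is GRCm38.p6 of the RefSeq promoters, so positions on them were used only for order, overlap, length and the promoters shown. Exons of 12 members overlap another gene, and as strand use in counting is not given, reads there cannot be told apart. Full values are given for members with a mean of at least 100, an adjusted p under 0.05 and a 2-fold change, for the member of highest mean in each family and for called members on the floor. From each context list, the 3 members with the smallest adjusted p and those changed 2-fold are named, with Neo1 added after its value was seen. Recomputed tests were tested on simulated data, with changes planted only in genes with a small SE. Recovery of changes in members with a larger SE was not tested. The settings tried were a threshold of 0.01, Bonferroni adjustment, a test of a change beyond 2-fold, means of at least 10 or 100, centring, subtraction of neighbours and the floor. Python 3.11.15, numpy 2.4.6, pandas 2.3.3, scipy 1.17.1 and matplotlib 3.10.9 were used.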

Additional observations from a re-analysis of the deposited data

How the results depend on the processing

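A test of a change beyond 2-fold left 8 members higher and 11 lower, in place of 15 and 22. By family it left 6 semaphorins, 3 plexins, 2 Eph receptors, 3 ephrins, 1 Robo and 0 netrins, in place of 11, 8, 5, 6, 2 and 1. For the netrins this Wald test gave 1 unadjusted p under 0.05, that of Ntn4 (0.00909, adjusted 0.0772). In that test 8 genes of the list of coreceptors and other ligands and 13 effectors passed, in place of 18 and 39. Bonferroni adjustment left 8 members higher, 4 plexins, 2 Eph receptors, 3 ephrins, 1 Robo and 23 effectors. Where only genes with a mean of at least 100 were kept, 7 members were higher, with 2 Eph receptors, 1 Slit, 1 Robo and 1 Unc5 receptor called and a median log2 fold change of -0.66 in place of -0.08. The 22 members left out in that setting had a median of 0.61. Centring on expressed genes, which shifts values by 0.05, turned the sign of Efna1, Plxnb3 and Sema3a (0.0127, 0.0383 and 0.0132), none of them past the threshold, and subtraction of neighbours turned Plxnb3 (0.27). Efna4 passed after centring (0.82, adjusted p = 0.0425). At a threshold of 0.01, 5 members no longer passed. Leaving out members with overlapping exons, an alternative chosen after seeing the data, left both counts of members within 1.5 times. No paired analysis was possible because the table holds no values of single libraries, and leaving out libraries could not be done for the same reason. Depth is unknown, so SEs, from 0.11 to 1.66 over the members, are the only measure of precision.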
